A study of Sus scrofa with 8 samples.

Results

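The leptin, ghrelin and adiponectin axis was taken as 8 genes. They are LEP (leptin) and its receptor LEPR, GHRL (ghrelin) and its receptor GHSR, ADIPOQ (adiponectin) and its receptors ADIPOR1 and ADIPOR2, and PRKAA2, a catalytic subunit of the AMP-activated protein kinase (AMPK). Every non-control probeset that carried one of these symbols was kept, which gave 12 of the 23999 probesets of the Affymetrix porcine array, a probeset being a group of short probes against the same transcript. The annotation of the array named 10 of the 12. The other 2, both of ADIPOR1, were named in a supplementary list of the study alone. That list holds only probesets that the study had called different between the breeds on these same arrays, so the values of these 2 are given as a description and without a test. The probeset of PRKAA2 was named by both, so the study had called it too, and it is counted with the 10.

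Endometrium, the lining of the uterus, came from 8 pregnant gilts on day 12 of gestation, 4 of the prolific Chinese breed Meishan and 4 Yorkshire. The study's methods describe natural mating, after an earlier estrus, with boars of the gilts' own breed. Only gilts with elongated conceptuses were used, so both groups were pregnant and there was no cycling control. Each gilt gave 1 array of biotin-labelled RNA from whole tissue, in which fewer cells of a type and less RNA per cell cannot be told apart. All 12 measured markers of endometrial epithelium, stroma and hormone response reached a signal of 64 in all 8 gilts. Among them were ACP5, the secreted uteroferrin, and VIM, a stromal filament protein. Reaching 64 was common, as 17595 of all 23999 probesets averaged at least that in a breed. Of 7 smooth muscle markers, 6 also reached it in all 8 gilts. Signals are on the linear scale of the array, with every array brought to the same median, and means are geometric means. Values of single gilts are given by number, from gilt 1 to gilt 4 of each breed. The level of 64 stands for a signal clear of the dim probesets and is not a detection call. Differences are Meishan minus Yorkshire on the log2 scale, tested with limma and called at a Benjamini-Hochberg adjusted p under 0.1 over all 23999 probesets. Of the 12 endometrial markers, 5 lay toward Meishan and 7 toward Yorkshire, and none was called. The breeds did not overlap for VIM, with Meishan above (0.47, SE 0.16, limma adjusted p = 0.245). Nor did they for the hormone response marker PGR, with Yorkshire above (-0.56, SE 0.20, limma adjusted p = 0.263). Over all probesets 10.1% did not overlap.

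Leptin is secreted mainly by fat cells and reports energy stores to the brain through LEPR, a cytokine-type receptor that acts by way of JAK2 and STAT3. Ghrelin is a stomach hormone that, once acylated, acts on the G protein-coupled receptor GHSR to release growth hormone and raise appetite. Adiponectin, also from fat cells, binds ADIPOR1 and ADIPOR2, and ADIPOR1 in particular works through AMPK, the kinase that cells switch on when energy runs low. All 3 hormones have been studied as signals that link nutrition to the uterus and the early conceptus.

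No member probeset was called between the breeds in limma, where 0.908% of all probesets were, 0.404% higher in Meishan and 0.504% higher in Yorkshire. Counted over the 10 probesets with an annotated name, 6 lay toward Meishan and 4 toward Yorkshire, with a median log2 difference of 0.38 beside 0.02 over all 23999. An unadjusted p under 0.05 was reached by PRKAA2 toward Meishan, where 7.79% of all probesets reached it, and by LEPR toward Yorkshire, where 6.96% did (14.8% in all). For 1 of the 10, PRKAA2, the breeds did not overlap, beside 10.1% of all probesets (5.01% with Meishan above, 5.09% with Yorkshire above). The members fell into 2 groups by signal. LEP, LEPR, GHRL and ADIPOQ stayed below a mean of 64 in both breeds, while GHSR, ADIPOR1, ADIPOR2 and PRKAA2 reached it. Dim probesets as a whole lay toward Meishan. With all probesets split into deciles by mean signal, the median difference was 0.46 in the dimmest decile and 0.31 in the next, and quantile normalization brought these medians to 0.10 and 0.04.

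**Figure D1:**
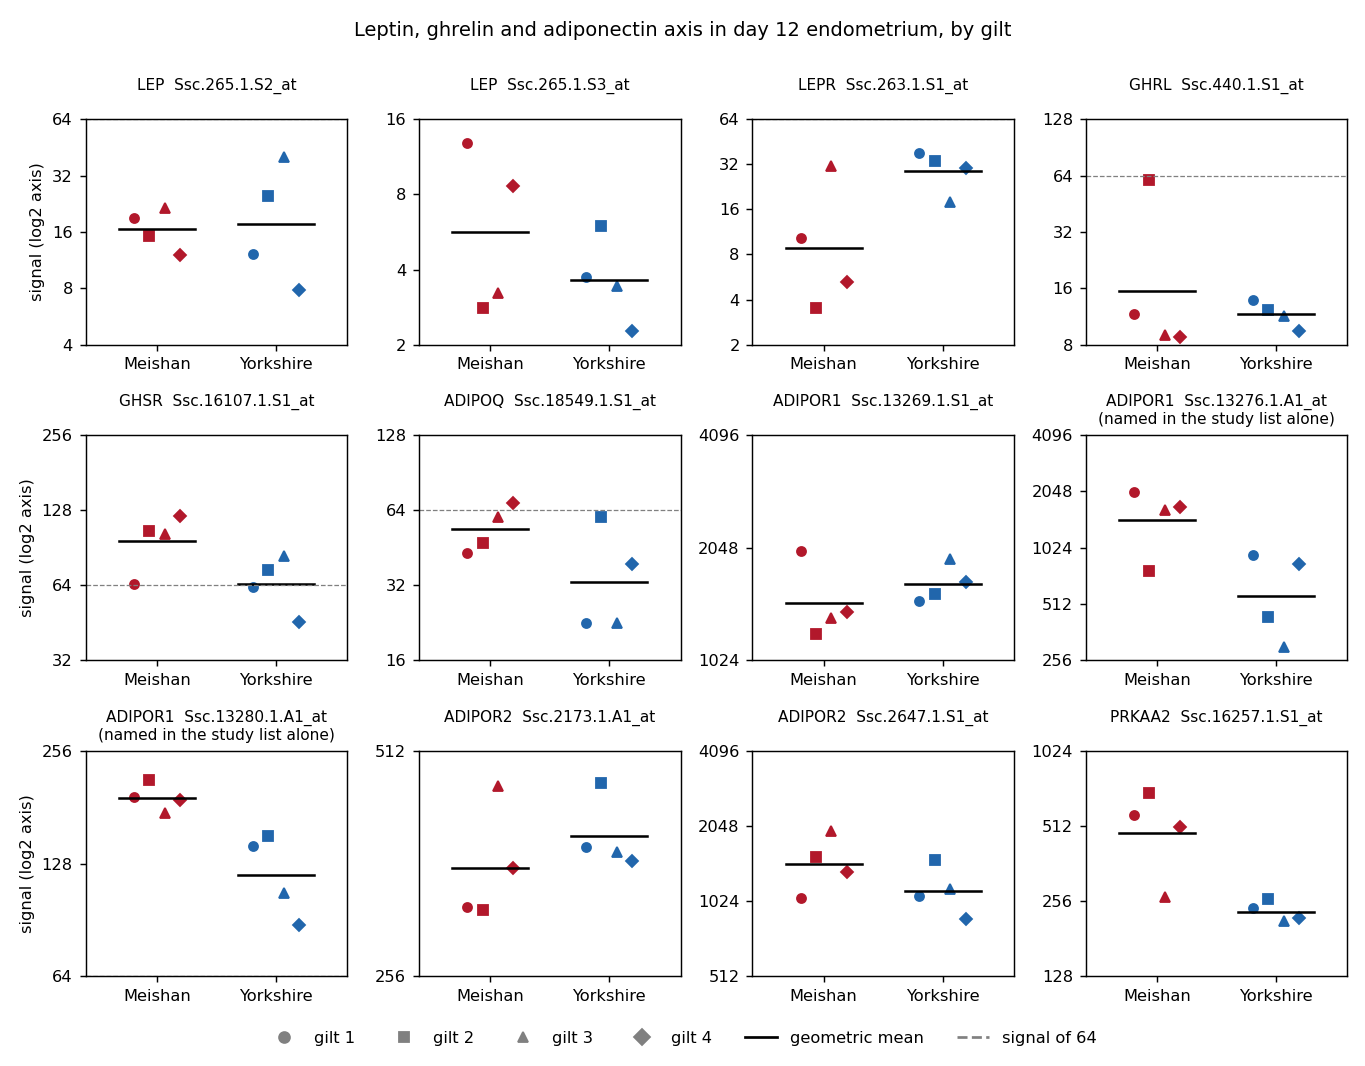
Signal of each of the 12 probesets (log2 axis, array units) in the 4 Meishan and 4 Yorkshire gilts, with 1 point per gilt, the marker shape giving the gilt number, a line at the geometric mean of the breed and a dashed line at 64 where it falls in the panel. PRKAA2 was the probeset named by the annotation in which all Meishan gilts lay above all Yorkshire gilts, and 1 Meishan gilt stood apart for GHRL.

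Transcripts of the 3 hormones were dim in both breeds. LEP was read by a pair of probesets. At the probeset ending in S2_at the Meishan gilts read 19.1, 15.2, 21.4 and 12.0 by number and the Yorkshire gilts 12.3, 25.0, 40.1 and 7.79. The Yorkshire gilts thus lay on both sides of the Meishan gilts, and the log2 difference was -0.09 (SE 0.50, 95% confidence interval -1.24 to 1.06, limma adjusted p = 0.952). At the probeset ending in S3_at all 8 gilts lay between 2.27 and 12.9, with a difference of 0.63 (SE 0.54, limma adjusted p = 0.636). Neither probeset reached 64 in any gilt. Both differences changed sign under some settings, the first when Meishan gilt 4 or Yorkshire gilt 2 or 3 was left out and the second when signals below 32 were set to 32.

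GHRL had 1 probeset, at which Meishan gilts 1, 2, 3 and 4 read 11.7, 61.0, 9.06 and 8.79. The Yorkshire gilts read 13.8, 12.2, 11.3 and 9.48 by number. Meishan gilt 2 stood alone, and the 7 other gilts lay together near the bottom of the signal range. The log2 difference was 0.41 (SE 0.60, limma adjusted p = 0.795). Without Meishan gilt 2 it turned to -0.25. The spread within a breed, as the SD of log2 signals, was 1.33 in Meishan and 0.23 in Yorkshire.

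ADIPOQ also had 1 probeset, at which the Meishan gilts read 43.0, 47.2, 59.8 and 68.6 by number and the Yorkshire gilts 22.6, 60.3, 22.6 and 38.9. Only 1 gilt, a Meishan, reached 64. Yorkshire gilt 2 lay among the Meishan gilts and the other Yorkshire gilts lay below them. The difference of 0.70 toward Meishan (SE 0.35, 95% confidence interval -0.12 to 1.51) did not pass (limma adjusted p = 0.405). The median difference of all probesets in its signal decile was 0.22.

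Since leptin and adiponectin are products of fat cells, markers of fat cells were set beside them. Of 10 measured markers, 3 reached 64 in all 8 gilts, the brightest being CFD, the complement protease adipsin, and LPL, lipoprotein lipase, which other cells also make. LPL had 0.12 (SE 0.18) at its brighter probeset and 0.58 (SE 0.25, limma adjusted p = 0.328) at the other. FABP4, the fatty acid carrier of fat cells and capillaries, and RETN, resistin, each reached 64 in 1 Meishan and 1 Yorkshire gilt, and CIDEA, a lipid droplet protein, in 0 of 8 gilts. Of the 10 markers, 6 lay toward Meishan, with a median difference of 0.16. Summed over the list, the Meishan gilts lay between 3367 and 5193 and the Yorkshire gilts between 4952 and 6651, a sum made up mostly of CFD, which averaged 2904 in Meishan against 4348. As a mean of log2 signals over the list, which weights the markers equally, the gilts overlapped, between 6.44 and 7.02 in Meishan and between 6.11 and 6.99 in Yorkshire. The list had no called gene in limma, and 1 gene of 10 reached an unadjusted p under 0.05, beside 14.8% of all probesets. It was CEBPA, a transcription factor of fat cells and other cells. Its brighter probeset had a difference of 1.06 (SE 0.39, limma adjusted p = 0.266) and its dimmer one -0.25. What part fat cells had in the LEP and ADIPOQ values was not tested.

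The array also holds 2 control probesets for leptin, one at the 5′ end of the transcript and one in its middle, which are not counted among the 12. They did not follow the gene probesets. Over the 8 gilts the 5′ and middle controls correlated with the S2_at probeset at Pearson r = -0.06 and -0.07. With the S3_at probeset they correlated at 0.20 and -0.07. As deviations from the breed mean these became -0.02 and -0.02, and -0.15 and -0.90. The controls correlated with each other at 0.68, and at 0.11 as deviations from the breed mean, all given as a description. At the 5′ control the Meishan gilts read 156, 148, 142 and 179.6 by number and the Yorkshire gilts 104, 36.8, 118 and 71.4. At the middle control the Meishan gilts read 112, 209, 203 and 159 by number and the Yorkshire gilts 88.3, 80.5, 92.7 and 90.0. Every Meishan gilt lay above every Yorkshire gilt at both. The log2 differences were 1.05 (SE 0.36) for the 5′ control and 0.92 (SE 0.23) for the middle control, and neither passed when the pair was tested with the other probesets (limma adjusted p = 0.240 and 0.149).

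Spike-in, tag and Trpn controls, which measure no pig transcript, mostly had differences toward Meishan too. Other kinds of control on the array that measure no pig transcript were not looked at. The 27 probesets for the hybridization spike-ins, bacterial and phage transcripts added to every sample, had differences from 0.73 to 1.30 (median 0.99), and in all 27 the 4 Meishan gilts lay above the 4 Yorkshire gilts. The 17 tag controls, at mean signals from 2.56 to 48.7, had a median difference of 0.95, with a range from 0.11 to 2.57. The 6 Trpn controls had a median of 0.98 and a range from -0.60 to 2.14. The breeds did not overlap in 1 of the 17 tag controls and 1 of the 6 Trpn controls. Among 18 control probesets for other pig transcripts the median was 0.35, with a range from -0.93 to 1.91. In 4 of these 18 all Meishan gilts lay above all Yorkshire gilts, beside 5.01% of all non-control probesets, and in 0 was it the reverse. The leptin controls thus lay within the range of the spike-ins. What part the handling of the arrays had in the leptin values was not tested.

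**Figure D2:**
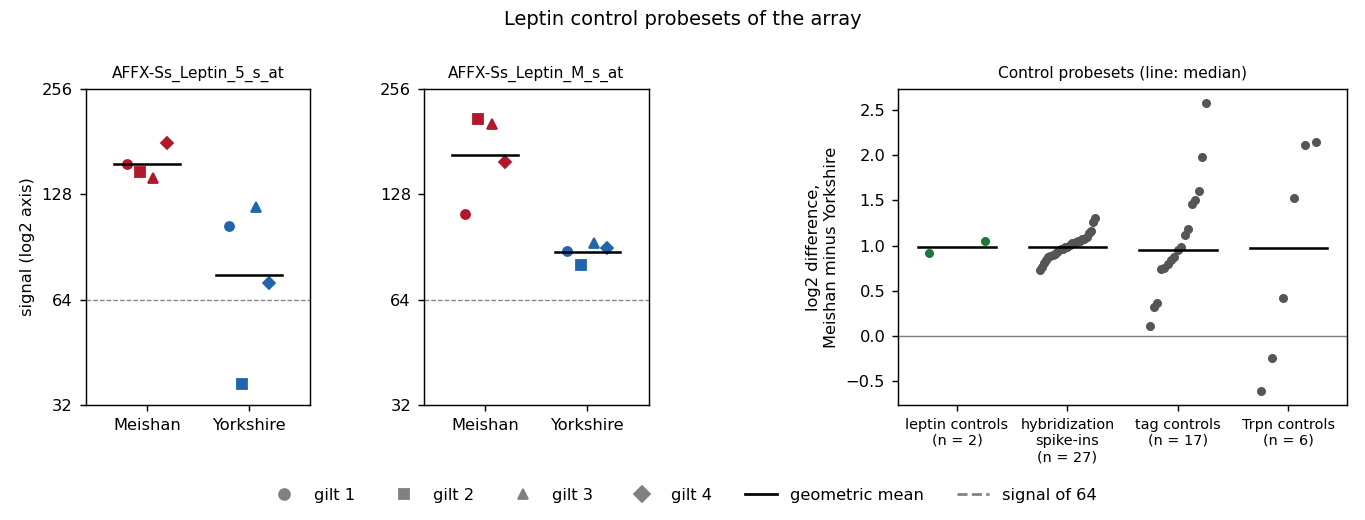
Signals of the 5′ and middle leptin control probesets in each gilt (log2 axis, array units; shape gives the gilt number, line the geometric mean, dashed line a signal of 64), and log2 differences, Meishan minus Yorkshire, of 4 kinds of control probeset (points: probesets, line: median). The medians were 0.98 for the leptin controls, 0.99 for the spike-ins, 0.95 for the tag controls and 0.98 for the Trpn controls.

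Of the leptin and ghrelin receptors, LEPR had a difference toward Yorkshire and GHSR one toward Meishan, and neither was called. LEPR had 1 probeset, at which the Meishan gilts read 10.2, 3.53, 31.1 and 5.27 by number and the Yorkshire gilts 38.3, 33.7, 17.9 and 30.4. Meishan gilt 3 lay among the Yorkshire gilts and the other Meishan gilts below them. The log2 difference was -1.72 (SE 0.64, 95% confidence interval -3.20 to -0.24), toward Yorkshire at a signal level where the median probeset lay 0.31 toward Meishan, and it was not called (limma adjusted p = 0.274). All 8 values were below 64, and with signals below 32 set to 32 the difference was -0.14. Without Meishan gilt 3 it was -2.33 (limma adjusted p = 0.142). LEPROT, the endospanin gene whose product holds leptin receptors inside the cell, was bright, averaging 3234 in Meishan against 3137 in Yorkshire, with a difference of 0.04 (SE 0.19).

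GHSR reached 64 in all 4 Meishan gilts and in 2 of 4 Yorkshire gilts. Meishan gilts read 64.6, 106, 102 and 121 by number and Yorkshire gilts 63.2, 73.4, 84.3 and 45.6. Of the Meishan gilts, 3 lay above all Yorkshire gilts and gilt 1 lay among them. Meishan averaged 96.0 against 65.0 in Yorkshire, and the difference of 0.56 (SE 0.28, 95% confidence interval -0.07 to 1.2) was not called (limma adjusted p = 0.393). The median probeset of its signal decile had 0.12.

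The adiponectin receptors, membrane proteins with a ceramidase activity, were bright. At the probeset that the annotation names ADIPOR1, the Meishan gilts read 2013, 1208, 1333 and 1382 by number and the Yorkshire gilts 1475, 1543, 1916 and 1664. The Meishan gilts held both the highest and the 3 lowest values. The difference was -0.17 (SE 0.21, limma adjusted p = 0.746), and its 95% confidence interval of -0.66 to 0.31 holds no change of 2-fold.

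The probesets that the study's list alone names ADIPOR1 lay toward Meishan, and had entered the list as differing on these arrays. At the brighter of them the Meishan gilts read 2037, 768, 1629 and 1699 by number and the Yorkshire gilts 939, 437, 302 and 841, so Meishan gilt 2 lay below 2 of the Yorkshire gilts. Meishan averaged 1442 against 568 (log2 difference 1.34, SE 0.45). At the dimmer one the Meishan gilts read 193, 214, 175 and 189 by number and the Yorkshire gilts 143, 152, 107 and 87.6, without overlap (log2 difference 0.69, SE 0.22). The annotation of the array gives these 2 probesets no gene. Over the 8 gilts the log2 signals of the annotated ADIPOR1 probeset correlated with theirs at Pearson r = -0.17 and -0.47, given as a description. The 2 listed probesets correlated with each other at 0.53 over the 8 gilts and at -0.19 within breeds. ADIPOR1 is abundant in maturing red blood cells. HBB, a globin chain, averaged 787 in Meishan against 875 in Yorkshire, and ALAS2, the first enzyme of heme synthesis in red cells, 265 against 250.1. Summed over the 4 measured red cell markers, of which 3 lay toward Meishan, the Meishan gilts lay between 946 and 1387 and the Yorkshire gilts between 951 and 1394. Their part in the ADIPOR1 values was not tested.

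ADIPOR2 had 2 probesets. At the brighter one, ending in S1_at, the Meishan gilts read 1057, 1533, 1961 and 1343 by number and the Yorkshire gilts 1077, 1500.2, 1144 and 866. The breeds overlapped, with a difference of 0.35 (SE 0.26, 95% confidence interval -0.24 to 0.95, limma adjusted p = 0.567). At the other probeset, ending in A1_at, all 8 gilts lay between 314 and 463 and the difference was -0.14 (SE 0.19, 95% confidence interval -0.59 to 0.30, limma adjusted p = 0.779). The signs were opposite, but within a breed the pair followed each other over the 8 gilts, with a Pearson correlation of deviations from the breed mean of 0.81, again a description.

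**Figure D3:**
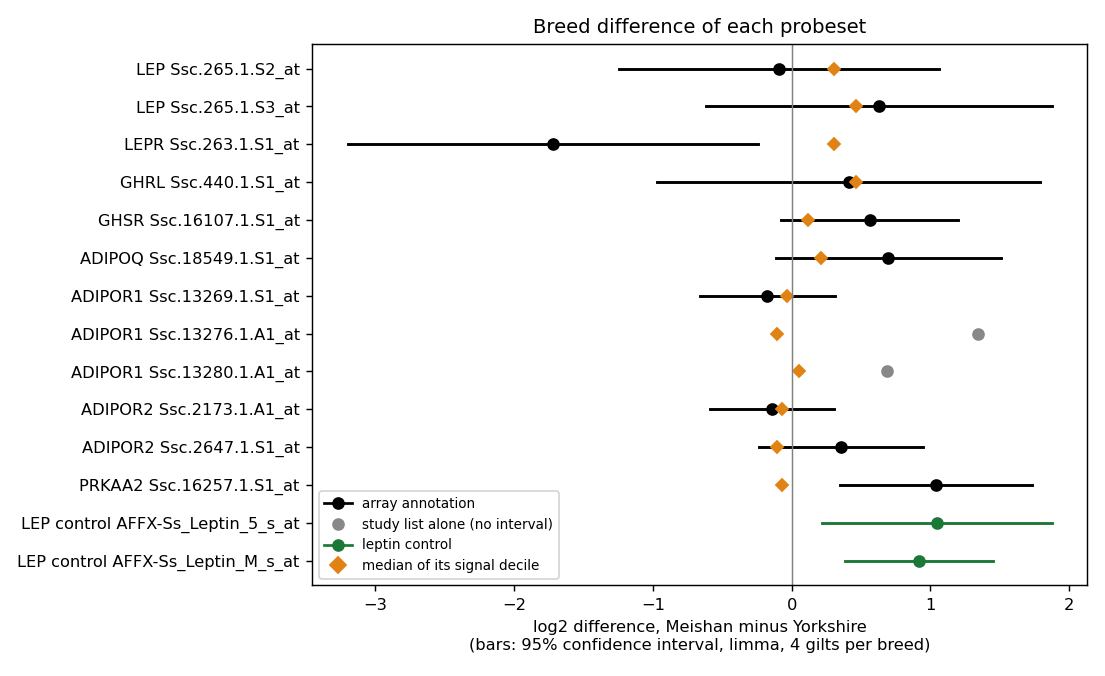
Log2 difference (Meishan minus Yorkshire, horizontal axis) of each of the 12 probesets and of the 2 leptin control probesets, with bars for the 95% confidence interval from limma (4 gilts per breed). The 2 ADIPOR1 probesets named by the study's list alone are drawn without bars. Orange diamonds mark the median difference of all probesets in the same signal decile, which ran from 0.46 in the dimmest to -0.11 in the ninth decile. Among probesets named by the annotation, the intervals of LEPR and PRKAA2 did not reach 0.

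PRKAA2, the alpha 2 catalytic subunit of AMPK, had the lowest p of the 10 probesets with an annotated name. It was also in the study's list of probesets called different on these arrays. At its 1 probeset the Meishan gilts read 564, 695, 266 and 505 by number and the Yorkshire gilts 241, 261, 212 and 218. All Meishan gilts lay above all Yorkshire gilts, with gilt 3 just above the highest of them and the other 3 well above. The Meishan mean of 479 was 2.06-fold that of Yorkshire, 232 (log2 difference 1.04, SE 0.30, 95% confidence interval 0.35 to 1.74). This was not called over all probesets (limma adjusted p = 0.185). Without Meishan gilt 3 it was, at a difference of 1.33 (limma adjusted p = 0.0954), and without each other gilt in turn, Meishan or Yorkshire, it was not. The spread was uneven, with an SD of 0.60 in Meishan and 0.14 in Yorkshire. The alpha 2 form is abundant in skeletal muscle and heart, while the markers set beside it here were those of smooth muscle. Among 7 measured smooth muscle markers, 6 lay toward Yorkshire, and their sum lay between 10990 and 22153 in the Meishan gilts and between 15411 and 23004 in the Yorkshire gilts. Desmin (DES), with a difference of 0.05 (SE 0.26), was the 1 toward Meishan. What part muscle of any kind had in the PRKAA2 values was not tested.

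AMPK is a trimer of an alpha catalytic, a beta scaffold and a gamma nucleotide-sensing subunit, and its other subunits lay on both sides. For PRKAB2, the beta 2 subunit, the Meishan gilts read 119.7, 96.0, 137 and 174 by number and the Yorkshire gilts 392, 244, 313 and 409.6. Every Yorkshire gilt lay above every Meishan gilt. PRKAB2 was 2.58-fold more abundant in Yorkshire (log2 difference -1.37, SE 0.26, limma adjusted p = 0.0886). It was the 1 called gene among the 68 measured genes of the lists around the axis, beside 0.908% of all probesets, 0.504% higher in Yorkshire. Each gene was taken at its brightest probeset, and none of the dimmer probesets was called. The call was lost without any 1 of the 8 gilts (limma adjusted p from 0.110 to 0.195), without moderation (0.115) and with no further scaling (0.102), while the difference stayed between -1.52 and -1.23 over all alternatives.

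PRKAG3, the gamma 3 subunit known from glycogen storage in pig muscle, lay on the Meishan side. Meishan gilts read 129.7, 169, 170.1 and 131 by number and Yorkshire gilts 117, 58.0, 114 and 36.4, without overlap. The difference was 1.03 (SE 0.39) and was not called (limma adjusted p = 0.280). The other subunits reached 64 in all 8 gilts at their brightest probesets and were close between the breeds. The alpha 1 subunit PRKAA1 had differences of -0.04 (SE 0.21) and 0.13 (SE 0.25) at its 2 probesets, PRKAB1 had -0.03 (SE 0.23), PRKAG1 0.07 (SE 0.16) at the brighter of its probesets, and PRKAG2 -0.27 (SE 0.24). Of 9 measured subunits and upstream kinases 3 lay toward Meishan and 6 toward Yorkshire. STK11, the upstream kinase LKB1, had -0.09 (SE 0.19) at the brightest of its 3 probesets and 1.28 (SE 0.82) and -0.01 at the others.

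**Figure D4:**
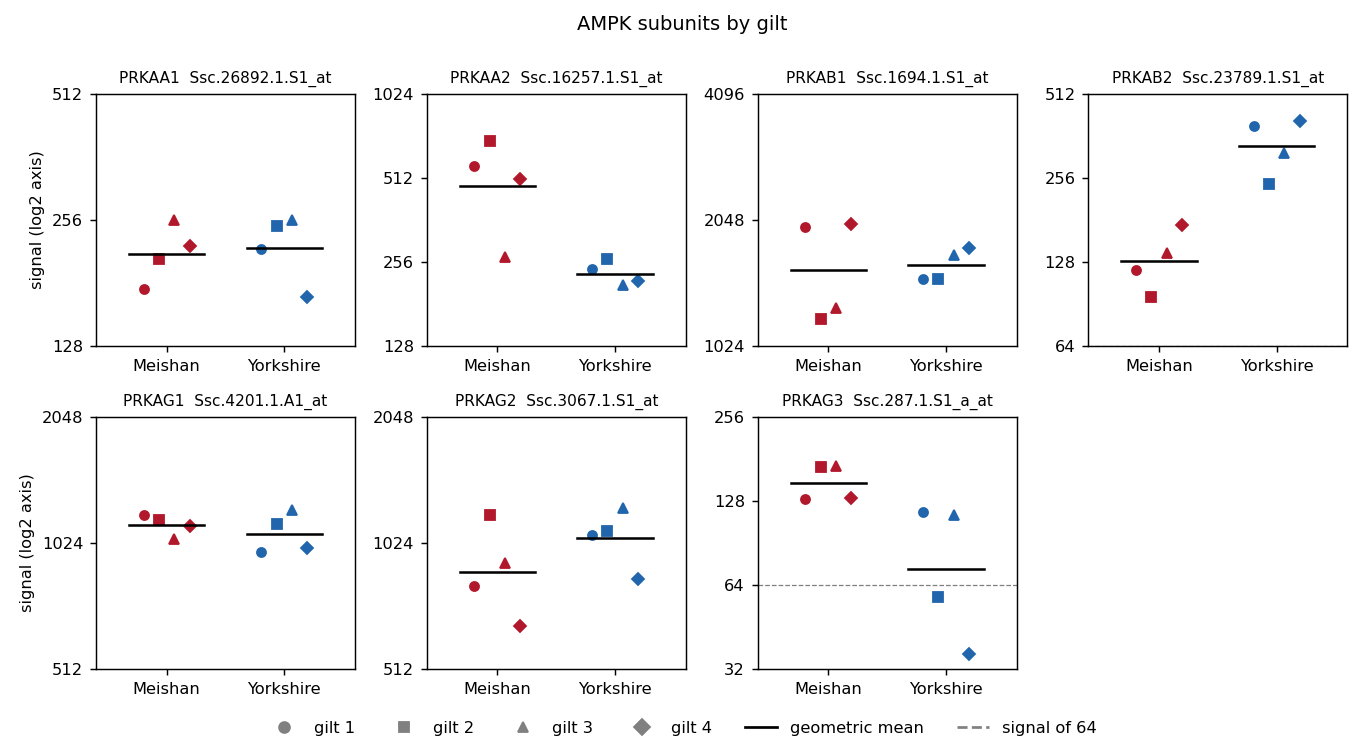
Signals of 7 AMPK subunit genes in each gilt (log2 axis, array units; shape gives the gilt number, line the geometric mean, dashed line a signal of 64), each at its brightest probeset. PRKAA2 and PRKAG3 had all Meishan gilts above all Yorkshire gilts, PRKAB2 had the reverse, and the breeds overlapped for the other 4. Over all probesets 5.01% had Meishan above without overlap and 5.09% Yorkshire.

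AMPK phosphorylates or represses enzymes of fat and sterol synthesis. Of 17 measured AMPK targets, 12 lay toward Meishan and 5 toward Yorkshire, with a median difference of 0.21 beside 0.02 over all probesets. None was called by limma. At an unadjusted p under 0.05 there were 3 of 17, each with the larger mean in Meishan. Over all probesets 14.8% reached it, 7.79% toward Meishan. SREBF1, a transcription factor of lipid synthesis, averaged 117 in Meishan against 65.8 (log2 difference 0.83, SE 0.27, limma adjusted p = 0.225). ACACA, acetyl-CoA carboxylase, averaged 80.9 in Meishan against 42.2 (0.94, SE 0.39, limma adjusted p = 0.315), but its dimmer probeset had a difference of 0.03. CPT1C, a brain-type relative of the mitochondrial fatty acid importer, had 0.49 (SE 0.21, limma adjusted p = 0.330) at the brightest of its 3 probesets and 0.66 and -0.05 at the others. FASN, fatty acid synthase, had 0.25 (SE 0.33) at the brightest of its 4 probesets. The others had 1.68 (SE 0.66, limma adjusted p = 0.295), 0.21 and -0.81.

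Of 15 measured genes of leptin signalling, 7 lay toward Meishan and 8 toward Yorkshire, with a median difference of -0.02 and no call by limma. MAPK3, the kinase ERK1, was the 1 gene at an unadjusted p under 0.05, which 14.8% of all probesets reached. Meishan gilts read 1242, 1061, 1102 and 1058 by number and Yorkshire gilts 795, 755, 728 and 792, without overlap (log2 difference 0.54, SE 0.15, limma adjusted p = 0.183). It was called with an intensity trend (limma adjusted p = 0.0952), with signals below 32 set to 32 (0.0872) and without moderation (0.0546). JAK2, the kinase bound to LEPR, had -0.41 (SE 0.22) at its brighter probeset and 0.41 (SE 0.27) at the other. STAT5A had 0.39 (SE 0.33) at its brightest probeset and 0.50 and 0.85 at the others, and STAT3 had -0.13 (SE 0.18).

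Of 10 measured genes listed for ghrelin processing and receptor coupling, 5 lay toward each breed, and none was called by limma. The list also holds genes around growth hormone, among them SST, GHR and GHRHR. At an unadjusted p under 0.05 there were 4 of 10, SST, PCSK2, GHR and GHRHR, each with the larger mean in Meishan. Over all probesets 7.79% reached it toward Meishan. None of the other genes of the list reached it at the brightest probeset, among them PCSK1 and ITPR1. SST encodes somatostatin, a hormone that opposes ghrelin in the release of growth hormone. For SST the Meishan gilts read 14569, 1266, 3179 and 3924 by number and the Yorkshire gilts 229.9, 768, 171 and 1146. All Meishan gilts lay above all Yorkshire gilts, gilt 2 by little and gilt 1 by far (log2 difference 3.17, SE 0.86, limma adjusted p = 0.170). PCSK2, a protease that matures peptide hormones, averaged 81.9 in Meishan against 22.2 (1.89, SE 0.52, limma adjusted p = 0.178) and also did not overlap. SST was called with an intensity trend (limma adjusted p = 0.0744) and among probesets that averaged at least 64 in a breed (0.0887), a level it passed in both breeds. GHR, the growth hormone receptor, averaged 38.6 in Meishan against 13.0 (1.57, SE 0.54, limma adjusted p = 0.243). It reached 64 in 1 Meishan gilt and 0 Yorkshire gilts, the breeds overlapped, and the lowest difference over the alternatives was 0.53. For GHRHR, the receptor of growth hormone releasing hormone, the difference was 0.55 (SE 0.22, limma adjusted p = 0.311). PCSK1, which cleaves proghrelin, and ITPR1, a calcium channel, reached 64 in 0 of 8 gilts. POU1F1, a pituitary transcription factor, had 5 probesets. The brightest reached 64 in 0 of 8 gilts, with a difference of -0.26 (SE 0.88). The others had 0.75 to 3.24, and the one at 3.24 (SE 0.66, limma adjusted p = 0.103) averaged 52.0 in Meishan against 5.51.

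Of 17 measured genes of adiponectin assembly, binding and signalling, 6 lay toward Meishan and 11 toward Yorkshire, with a median of -0.12 and no call by limma. The 1 gene at an unadjusted p under 0.05, which 14.8% of all probesets reached, was C1QTNF6, a relative of adiponectin. It had a difference of 0.60 (SE 0.21, limma adjusted p = 0.248) at the brightest of its 3 probesets and 1.06 and -0.17 at the others. ASAH1, the acid ceramidase, averaged 2250.0 in Meishan against 4445 in Yorkshire (-0.98, SE 0.46, limma adjusted p = 0.369), and ERO1A, an oxidase of the endoplasmic reticulum, had 0.42 (SE 0.20). CDH13, the cadherin that binds large forms of adiponectin, was bright in both breeds, averaging 9789 in Meishan against 7840.0 (0.32, SE 0.23). APPL1, the adaptor of the adiponectin receptors, had 0.10 (SE 0.31).

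**Figure D5:**
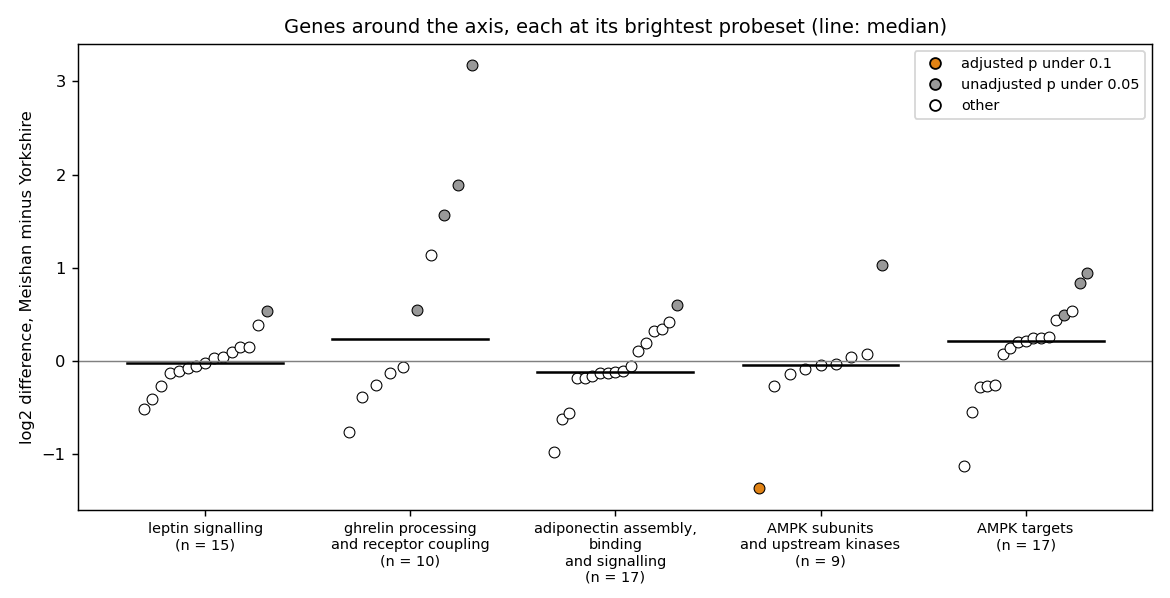
Log2 difference (Meishan minus Yorkshire) of each measured gene in 5 lists around the axis, each gene at its brightest probeset, with a line at the median of the list. Filled orange marks an adjusted p under 0.1 and grey an unadjusted p under 0.05. PRKAB2 was the only gene of the 5 lists that was called, where 0.908% of all probesets were. List medians lay between -0.12 and 0.24.

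The study's literature network tied sets of genes to LEP, GHRL and ADIPOQ, and PRKAA2 was in all 3 sets. These genes had been taken from the study's own lists of transcripts that differed between the breeds on these arrays, so their direction is not independent evidence. At the brightest probeset in the annotation of the array, 22 of 29 measured genes of the LEP set lay toward Meishan (median log2 difference 0.36), 7 of 11 of the GHRL set (0.49) and 10 of 14 of the ADIPOQ set (0.35). In the LEP set 1 of 29 genes was called at its brightest probeset, beside 0.908% of all probesets. It was PPP1CA, a catalytic subunit of protein phosphatase 1, averaging 1774 in Meishan against 634 (1.48, SE 0.17, limma adjusted p = 0.0183). Its other probeset had 1.08 (SE 0.24, limma adjusted p = 0.120). APOE, apolipoprotein E, had opposite signs at its 2 probesets. The bright one had -1.06 (SE 0.24, limma adjusted p = 0.128), and the dim one, averaging 45.9 in Meishan against 8.19, had 2.49 (SE 0.48) and was called (limma adjusted p = 0.0941). ACTB, beta actin, had 0.68 (SE 0.17, limma adjusted p = 0.142), and 1.14 at its dimmer probeset. No gene was called by limma at its brightest probeset in the GHRL and ADIPOQ sets. An unadjusted p under 0.05 was reached by 4 genes in each, all toward Meishan, beside 7.79% of all probesets. They were SST, MAPK3, PRKAA2 and SREBF1 in the first and MAPK3, PRKAA2, RPS6 and STEAP4 in the second.

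For the 4 members that averaged at least 64 in a breed, the genes with the closest pattern over the 8 gilts were sought among 5941 annotated genes. The measure was the Pearson correlation of log2 signals. It is given as a description, since the genes were picked as the highest of so many over 8 gilts. PRKAA2 was followed most closely by C14H12orf49 (r = 0.98), EFCAB11 (0.96) and PTP4A2 (0.96), and their differences toward Meishan were 0.70, 0.45 and 0.46. GHSR was followed by SAG (0.98), RPUSD1 (0.96) and HAUS8 (0.96). The annotated ADIPOR1 probeset was followed by EIF1B (0.98), PPM1D (0.98) and HILPDA (0.97), and ADIPOR2 by NAT9 (0.94), RRP9 (0.94) and ABCD4 (0.93). Within breeds these correlations ranged from 0.89 to 0.98.

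Markers of other cells that the sample could hold were also set beside the members. Of 6 measured markers of the conceptus trophoblast, 5 lay toward Yorkshire, and their sum lay between 142 and 1088 in the Meishan gilts and between 315 and 6667 in the Yorkshire gilts. TFAP2C, a transcription factor of trophoblast, had a difference of -3.07 (SE 0.63, limma adjusted p = 0.105) without overlap, at means of 6.07 in Meishan against 51.0. STAR, a cholesterol carrier of steroid synthesis, reached 64 in 0 of 8 gilts, and the steroid enzyme CYP11A1 in 1 Yorkshire gilt. STAR had -0.75 (SE 0.70) at its brighter probeset and 0.23 at the other. The 1 marker toward Meishan was CYP17A1, a steroid enzyme (0.17, SE 0.82). CYP19A1, the aromatase, was measured but was not in the list. It averaged below 64 in both breeds at all its probesets, with -0.20 (SE 0.33) at the brightest and 1.72, 1.30 and 2.31 at the others. Brightest of the 6 were IFNG, a cytokine of the pig conceptus and of lymphocytes, and GATA3, a transcription factor of trophoblast and T cells. IFNG read 14.2, 904, 304 and 114 by number in Meishan and 4604, 221, 6286 and 33.5 in Yorkshire, so Yorkshire gilts 1 and 3 stood above the rest, gilt 4 lay below 3 Meishan gilts (limma adjusted p = 0.636), and the upper end of the summed range is gilt 3. GATA3 averaged 79.6 in Meishan against 132 at its brightest probeset, with -0.73 (SE 0.35), and had 0.62, -0.35 and -1.06 at the others. Of 6 leucocyte markers, 2 lay toward Meishan and 4 toward Yorkshire, with a median difference of -0.17. The macrophage receptors CD163 (418 in Meishan against 353) and CD14 (255 against 168) were brightest, and their dimmer probesets had -0.38 and 1.58. The sum of the leucocyte markers lay between 897 and 1249 in the Meishan gilts and between 911 and 1106 in the Yorkshire gilts. Neither list held a called gene in limma, where TFAP2C and CD3E, a T cell receptor chain, reached an unadjusted p under 0.05. Both lay toward Yorkshire, where 6.96% of all probesets reached it (14.8% in all). The part of these cells in the values of the members was not tested.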

How the data were processed

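Endometrial RNA of 8 gilts was hybridized to 1 Affymetrix array each. The authors deposited intensities, on a linear scale, from GCOS 1.2, and after trimming 2% of probesets at each end their mean was 500.1 on every array. The authors then used natural logs and a mixed model in SAS, which were not used here. Of 24123 probesets, 124 controls were left out of the tests. Signals were put on the log2 scale, arrays were centred on their medians (168 to 195 before) and breeds were compared with limma 3.58.1 in R 4.3.3 (no covariate, Benjamini-Hochberg over 23999 probesets). The procedure was checked on simulated data, where changes as large as that of PRKAA2 were not recovered. Fewer probesets were changed there than are estimated to differ here, so that recovery need not hold for these data. An absent call does not show an absent difference. The annotation gives 10069 probesets 1 symbol, 198 several and 13732 none. The study's supplementary list was used for names alone. Genes of lists were taken at the brightest annotated probeset. The number of arrays limits the precision, gilts were separate animals, and the labels give no hybridization batch.

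Named are all member probesets, per list the 3 genes with the lowest p and any called, markers at 64 in 0 gilts and the 2 brightest, and the 3 genes closest in pattern. Further genes with a known role in the axis or as markers were added after their values were seen. Those around the axis were LEPROT, STAT3, STK11, FASN, CDH13, APPL1, STEAP4 and other AMPK subunits. The markers were FABP4, RETN, CEBPA, CYP11A1, CYP17A1, CYP19A1, TFAP2C, DES, CD3E and PGR. Members and lists were chosen with earlier results of these data known. Gilts with the same replicate number did not deviate together (correlations -0.06, 0.09, 0.00 and 0.04). Alternatives were scaling, a filter and a floor on signals, the prior, array weights, q-values, thresholds, a replicate block and leaving out each gilt. Sequences of the members are not used here.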

Additional observations from a re-analysis of the deposited data

Results flagged for a closer look

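The GHRL signal of Meishan gilt 2, 61.0, stood apart from the other Meishan gilts, at 8.79 to 11.7. The gap to the nearest gilt was 0.852 of the range of the group on the log2 scale, above the limit of Dixon's test for 4 samples. Such a gap arises by chance in about 1 of 20 groups, and 24 groups were looked at.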

How the results depend on the processing

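No member was called in limma under any alternative other than leaving out Meishan gilt 3, where PRKAA2 was (counts of 0 to 1 without 1 gilt). Adding the leptin controls or keeping annotated names alone, both chosen after seeing the data, gave 0 calls. Differences reversed for LEP (S2_at) without 1 gilt (-0.48 to 0.31), LEP (S3_at) with signals below 32 set to 32 (-0.063), GHRL without 1 gilt (-0.25 to 0.68) and JAK2 as the mean of its probesets (0.0026). The calls among the 68 list genes, 1 by the main settings, were 0 with no further scaling, at an adjusted p under 0.05, with the replicate block and without any 1 gilt (0 to 0). They were 3 with an intensity trend, 2 with signals below 32 set to 32 and 3 among probesets of at least 64 in a breed, where PCSK2 passed the filter through Meishan alone, so that its call there is no support. Over all probesets the 218 calls became 760 among probesets of at least 64, 777 with the floor, 626 with the trend, 628 with q-values, 497 with array weights, 60 at an adjusted p under 0.05, 0 with the replicate block (3327 at an unadjusted p under 0.05) and 72 to 205 without 1 gilt. Markers at the level in all gilts were 25 at 64, 33 at 32 and 21 at the highest level tried. The cause of these changes was not tested. Signals below 64 limit LEP, LEPR, GHRL and ADIPOQ.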
